A study of Homo sapiens with 12 samples.

Results

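The genes described here make NADPH, the reducing agent of antioxidant metabolism, or spend it on quinones, aldehydes and ketones. They are 9 genes chosen by symbol from the 47634 gene IDs in the count files. PGD, TKT, TALDO1 and ME1 encode NADPH producing enzymes or their pathway partners, NQO1 encodes a quinone reductase, and AKR1B10, AKR1C1, AKR1C2 and AKR1C3 encode aldo-keto reductases. All 9 were matched to an ID. Of these, 8 were among the 11051 genes with enough counts to be tested, and ME1 was not.

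The cells were HepG2, a line derived from a human hepatocellular carcinoma that retains many liver functions. ATP7B, which encodes a copper-exporting ATPase mutated in Wilson disease, was knocked out (KO) in 1 line and was wild type (WT) in the other. The 4 groups of 3 libraries were KO cells given copper for 24 h, untreated KO cells, WT cells given copper for 24 h and untreated WT cells. The labels give neither the copper dose nor the number of clones behind the KO line. They call the libraries biological replicates without naming separate cultures, so p-values measure the spread between these samples, which may be technical.

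The oxidative branch of the pentose phosphate pathway reduces NADP+ to NADPH, and PGD (6-phosphogluconate dehydrogenase) catalyses the later of its NADPH-yielding steps. TKT (transketolase) and TALDO1 (transaldolase) run the non-oxidative branch, which returns pentose phosphates to glycolysis, and ME1 (cytosolic malic enzyme) makes NADPH from malate. All 9 genes are known targets of NRF2, the transcription factor encoded by NFE2L2. KEAP1 holds NRF2 in check until oxidants or electrophiles modify it, and NRF2 then binds antioxidant response elements together with a small MAF protein.

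Libraries held 2388597 to 2807634 counts in KO copper, 976658 to 3277087 in KO untreated, 1873703 to 2581954 in WT copper and 3561723 to 3829151 in WT untreated cells. ATP7B itself was measured at 3.92 to 6.77 counts per 1000000 counts of the library (CPM) in KO copper, 2.05 to 11.6 CPM in KO untreated, 3.87 to 5.34 CPM in WT copper and 12.4 to 13.1 CPM in WT untreated libraries. A tag near the 3′ end checks a knockout only if the edit removes the transcript, and the labels do not say where the edit lies. All 9 hepatocyte markers were detected in every library, the lowest value being 86.7 CPM of FGB. Their summed level was 4883 to 4999 CPM in KO copper, 10176 to 13808 CPM in KO untreated, 12033 to 13422 CPM in WT copper and 27463 to 27848 CPM in WT untreated libraries. Markers of leukocytes included LYZ, which took most of that list's 204 to 1490 CPM, while CD3E had no counts in any library and PTPRC was at most 0.281 CPM. Of the 4 endothelial markers KDR and TEK had no counts, and the list summed to at most 10.2 CPM. The fibroblast list summed to 2.77 to 56.9 CPM, with at most 37.8 CPM for COL1A1, the kidney or neural list to at most 9.97 CPM, and the biliary list, mainly SPP1, to 386 to 806 CPM.

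Mitochondrially encoded genes took 8.34% to 9.46% of counts in KO copper, 5.82% to 8.85% in KO untreated, 6.58% to 8.59% in WT copper and 2.97% to 3.80% in WT untreated libraries, so this share moved with copper in WT cells and with genotype in untreated cells. KO untreated replicates 1 and 2 and WT copper replicate 1 stood apart from the other 9 libraries. They were also the shallowest, with 1443372, 976658 and 1873703 counts, against 2295050 or more in each other library. Genes with counts numbered 14232, 13481 and 15012 in them, against 15836 or more in each other library. On the first principal component of edgeR's log2 CPM, which held 44.25% of the variance, these 3 libraries lay at 111, 120.4 and 23.9, and the other 9 lay between -44.8 and -4.39. Ribosomal protein genes took 5.75% and 4.99% of counts in KO untreated replicates 1 and 2, against 10.7% in replicate 3 of that group. Pearson correlations of edgeR's log2 CPM across genes were 0.798 to 0.927 within KO untreated cells, 0.91 to 0.972 within WT copper, 0.979 to 0.98 within KO copper and 0.986 to 0.988 within WT untreated cells. Member results that rest on the 3 libraries are given with and without them, and for other genes the value without them is given where it differs by over 1.5 times as a fold or ends a call. Leaving them out keeps only replicate 3 of KO untreated cells, so that group then has no spread of its own. Calls and adjusted p in its comparisons then rest on the spread of the other groups. The part that these library differences or the lower marker sums play in the results was not tested.

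Copper raised TALDO1, AKR1C1 and AKR1B10 in KO cells, by 2.76 ± 0.62, 2.25 ± 0.62 and 1.29 ± 0.31 on the log2 scale (fold change ± SE). No other member passed the test for copper in KO cells, so 3 of 8 did, all upwards. Across all genes tested, 33.7% were called in that comparison and 15.2% rose, so 3 of 8 is close to the share called in either direction. In RNA from a whole culture, fewer cells of a kind and less RNA per cell cannot be told apart. The CPM values of AKR1C3 and of these 3 genes were higher in every KO copper library than in every KO untreated library, and 19.1% of all genes separated in that way. The median log2 fold change was 1.17 over the 8 members and 0.01 over all genes tested.

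In WT cells copper moved none of the 8 members past the threshold in the edgeR quasi-likelihood test with Benjamini-Hochberg adjustment over all genes, where 14.9% of all genes were called. The call was also made for 0 members by DESeq2 (19.3% of all genes) and by limma voom (17.0%), and 1 member, AKR1B10, had an unadjusted p under 0.05 in edgeR. PGD and TKT were higher in every WT copper library than in every WT untreated library, against 21.3% of all genes. The median over the members was 0.46, against -0.03 over all genes.

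Without copper, KO cells had more AKR1B10 and less AKR1C1 and AKR1C3 than WT cells. The log2 differences were 1.17 ± 0.32, -1.86 ± 0.61 and -2.43 ± 0.66, and these 3 of 8 members compare with 31.9% of all genes called (17.9% higher and 14.0% lower in KO). AKR1B10 separated upwards, as did 25.7% of all genes, and all 3 AKR1C genes separated downwards, as did 19.1%. The median was -0.97 over the members and -0.02 over all genes.

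With copper, AKR1B10 was the only member of the 8 that differed between the lines in the fit on all 12 libraries, with KO above WT by 1.61 ± 0.31 on the log2 scale (adjusted p = 0.00594). Of all genes, 5.77% were called higher and 13.8% in either direction. TALDO1, NQO1 and AKR1B10 separated upwards in KO cells and PGD and TKT downwards, against 26.4% and 20.0% of all genes. The comparisons share groups: the KO copper libraries enter both the copper effect in KO cells and the difference between lines in copper.

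The difference of the copper effects between KO and WT cells was called for none of the 8 members at an adjusted p of 0.05 in edgeR, where 4.93% of all genes were called. On simulated counts this comparison recovered 2% of 2-fold and 40% of 4-fold changes, so most such differences would be missed. TKT, TALDO1 and NQO1 had an unadjusted p under 0.05, with differences of -0.78 ± 0.33, 1.96 ± 0.83 and 1.21 ± 0.55 and adjusted p of 0.127, 0.131 and 0.148. DESeq2 and limma voom also called 0 members, while edgeR with no filter on low counts called 4 (9.77% of all genes) and edgeR without KO untreated replicate 3 called 6 (51.5%). A rise in KO cells beside an uncalled value in WT cells is therefore not shown to be a difference between the lines in the fit on all libraries.

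**Figure D1:**
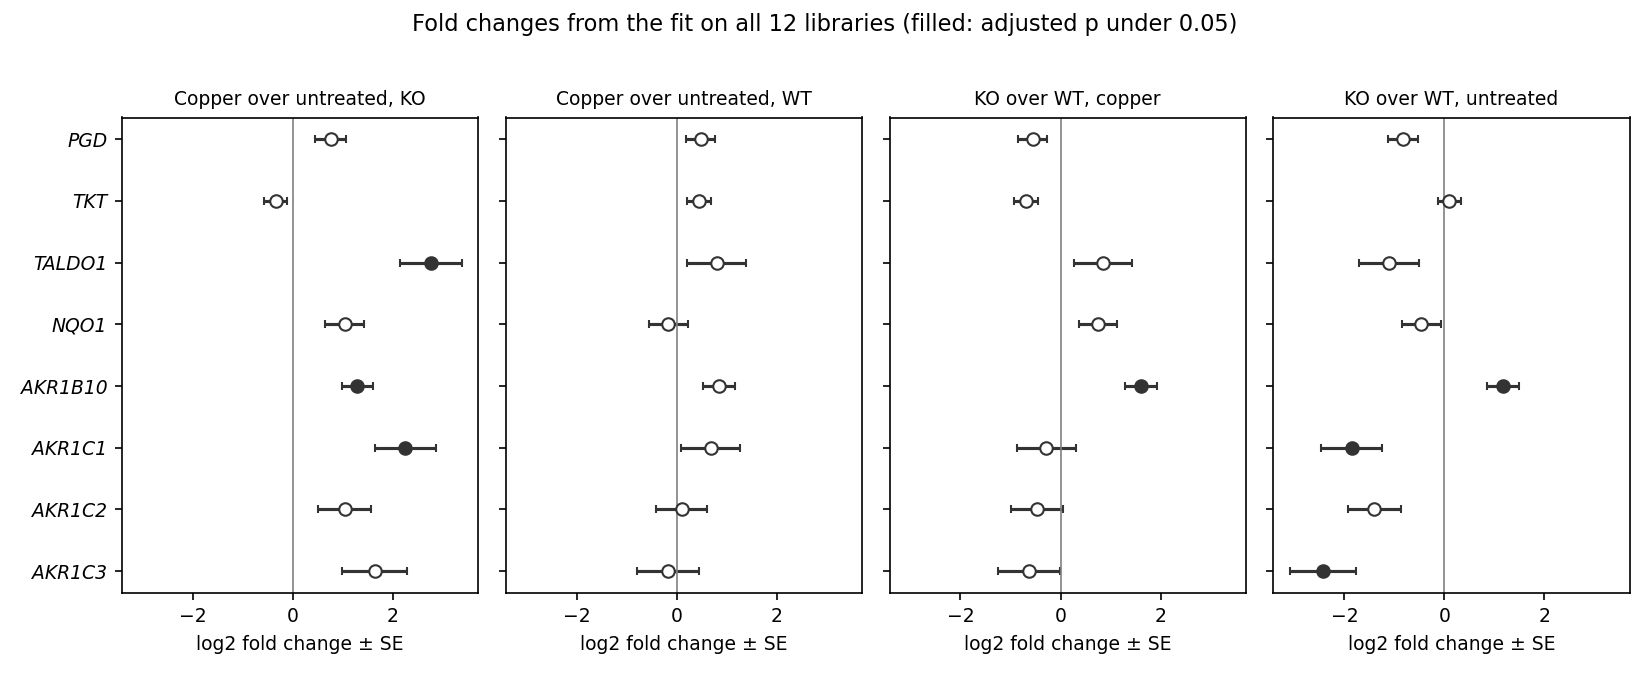
Log2 fold change of the 8 tested members (points) with its SE (bars) in the fit on all 12 libraries, for copper over untreated in KO and in WT cells and for KO over WT with and without copper; filled points have an adjusted p under 0.05. AKR1B10 is filled in every panel but copper in WT cells, while TKT lies between -0.69 and 0.45 and is filled in none.

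TALDO1 had the widest range among the NADPH producing enzymes on the log2 scale. It was at 436, 354 and 389 CPM in KO copper replicates 1, 2 and 3, against 27.0, 12.3 and 148 CPM in KO untreated replicates 1, 2 and 3. In WT cells it was at 123, 257 and 261 CPM with copper and at 127, 132 and 115 CPM without. Every KO copper library was thus above every other library, and KO untreated replicates 1 and 2, with 39 and 12 counts, were below every other one. KO untreated replicate 3 and WT copper replicate 1 lay near the WT untreated libraries.

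The rise of TALDO1 with copper in KO cells had an adjusted p of 0.00571 (edgeR) and kept its call under every alternative that was run. Its size depended on KO untreated cells: it was 4.28 (adjusted p = 2.02e-07) without replicate 3 of that group. It was 1.59 without the 3 libraries that stood apart, where only replicate 3 stood for that group. In WT cells the copper effect on TALDO1 was 0.80 ± 0.58 (adjusted p = 0.386). It was 1.12 (adjusted p = 2.76e-11) without the 3 libraries and 0.85 (adjusted p = 0.0138) without KO untreated replicate 3, which enters this comparison only through the shared spread. KO differed from WT by -1.11 ± 0.59 without copper (adjusted p = 0.166) and by 0.85 ± 0.58 with copper (adjusted p = 0.36). Without the 3 libraries these were 0.04 and 0.52, and without KO untreated replicate 3 they were -2.64 (adjusted p = 1.71e-05) and 0.79 (adjusted p = 0.0203).

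TKT had the highest mean CPM of the members in every group, on a scale where 3′ tags count transcripts whatever their length. It was at 619.7, 606 and 694 CPM in KO copper, against 1023, 937 and 648 CPM in KO untreated replicates 1, 2 and 3. WT cells had 1182, 993 and 846 CPM with copper, against 695, 756 and 810.0 CPM without. In CPM KO untreated replicate 3 lay among the KO copper libraries, and all WT copper libraries were above the WT untreated ones. With the TMM scaling of the test that replicate was at 577, below the 619 to 687 of KO copper. Replicates 1 and 2 were above that range, so the KO groups overlapped on both scales. The profile of TKT was the flattest of the 8, with an SD of 0.30 over the 12 libraries on the log2(CPM + 1) scale, against 1.45 for TALDO1.

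No TKT comparison passed the test: copper gave -0.34 ± 0.23 in KO cells (adjusted p = 0.27) and 0.45 ± 0.23 in WT cells (adjusted p = 0.218). KO differed from WT by -0.69 ± 0.23 with copper (adjusted p = 0.0676) and by 0.09 ± 0.23 without (adjusted p = 0.772). The difference with copper was called without the 3 libraries that stood apart (-0.61, adjusted p = 1.28e-06) and without KO untreated replicate 3 (-0.74, adjusted p = 0.00217). Copper in WT cells was likewise called in those fits, at 0.35 (adjusted p = 0.00222) and 0.49 (adjusted p = 0.0237). In untreated cells the sign turned without the 3 libraries, to -0.42. Copper in KO cells was called without KO untreated replicate 3 (-0.59, adjusted p = 0.00859), but its effect turned positive without the 3 libraries.

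PGD was at 89.0, 83.7 and 82.0 CPM in KO copper, against 29.8, 47.1 and 86.4 CPM in KO untreated replicates 1, 2 and 3. In WT cells it was at 153, 115 and 98.4 CPM with copper, against 90.2, 84.6 and 93.2 CPM without. In CPM KO untreated replicate 3 lay within the KO copper range, so the KO groups overlapped, and the WT copper libraries were all above the WT untreated ones. With the TMM scaling of the test that replicate was at 76.8, below the 81.1 to 93.1 of KO copper, so the KO groups separated. The copper effect was 0.75 ± 0.30 in KO cells (adjusted p = 0.0702) and 0.48 ± 0.29 in WT cells (adjusted p = 0.298). KO differed from WT by -0.56 ± 0.29 with copper (adjusted p = 0.232) and by -0.83 ± 0.30 without (adjusted p = 0.0506). None passed, and all 4 did with the same sign without KO untreated replicate 3. In that fit copper gave 1.20 in KO (adjusted p = 0.000481) and 0.52 in WT cells (adjusted p = 0.0354), and KO differed from WT by -0.61 with copper (adjusted p = 0.0189) and by -1.29 without (adjusted p = 0.000249). Without the 3 libraries that stood apart copper gave 0.31 in WT and 0.16 in KO cells. In that fit KO differed from WT by -0.41 with copper and by -0.25 without.

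ME1 had 0, 0 and 4 counts in KO copper libraries and no counts in the 3 KO untreated libraries. It had 1, 0 and 0 counts in WT copper and 0, 0 and 1 counts in WT untreated libraries. A floor of 3 counts equals 0.783 CPM in the deepest library and 3.07 CPM in the shallowest, so ME1 was at or near the floor in all 12 and no comparison was made.

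The promoter windows of PGD and ME1 are shown because they were the 2 of 8 members with a RefSeq promoter entry whose window held the antioxidant response element core TGACNNNGC. The window runs 250 bases before to 50 after the start given by the entry on GRCh38.p14. Both strands were searched, and 13.3% of all 35116 promoter entries held the core. The letters of the core are in capitals. In PGD (chr1:10398851-10398883, plus strand) the core is on the opposite strand, and its base farthest from the start lies 201 bases before that start. In ME1 (chr6:83431168-83431200, minus strand) the core begins 137 bases before the start, and its letters overlap the AP-1 motif TGACTCA. A match describes these letters and is not evidence of binding.
PGD: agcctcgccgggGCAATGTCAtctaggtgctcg
ME1: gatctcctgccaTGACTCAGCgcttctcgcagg

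**Figure D2:**
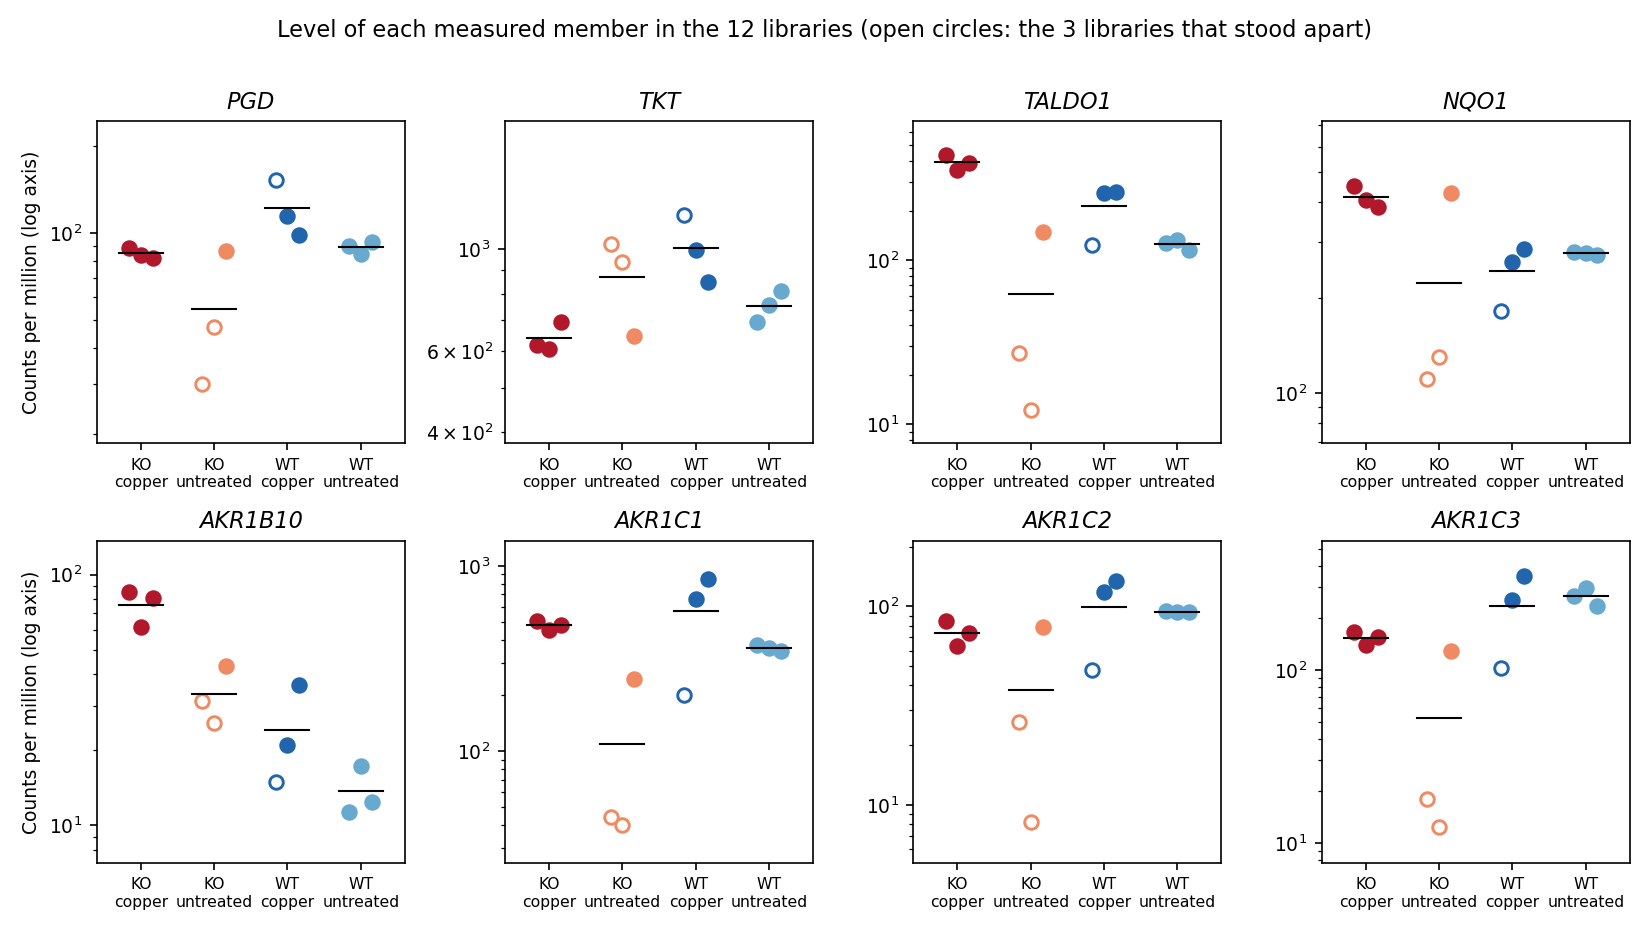
CPM of each of the 8 tested members in the 12 libraries on a log axis, by group from left to right KO copper, KO untreated, WT copper and WT untreated; points are replicates 1 to 3, bars are group means and open circles are the 3 libraries that stood apart. In KO untreated cells replicates 1 and 2 lie below replicate 3 for every member shown but TKT, whose values there are 1023 and 937 CPM against 648 CPM.

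NQO1 reduces quinones by the transfer of a pair of electrons from NADH or NADPH, and is a widely used readout of NRF2. It was at 451, 408 and 387 CPM in KO copper, against 111, 130.0 and 427 CPM in KO untreated replicates 1, 2 and 3. It was at 182, 259.7 and 285 CPM in WT copper, against 279, 278 and 272 CPM in WT untreated replicates 1, 2 and 3. In CPM KO untreated replicate 3 was level with the KO copper libraries while replicates 1 and 2 were the lowest of all 12. With the TMM scaling of the test replicate 3 was at 379, just below the 382 to 471 of KO copper. All KO copper libraries were above all WT copper libraries.

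None of the NQO1 comparisons passed the test with all libraries. Copper gave 1.04 ± 0.39 in KO cells (adjusted p = 0.0562) and -0.17 ± 0.38 in WT cells (adjusted p = 0.814), and the difference between these was 1.21 ± 0.55 (adjusted p = 0.148). Without KO untreated replicate 3 the effect in KO cells was 1.82 (adjusted p = 1.76e-06) and the difference between the lines 1.94 (adjusted p = 2.29e-05). Without the 3 libraries that stood apart they were 0.14 and 0.10. KO against WT gave 0.75 ± 0.39 with copper (adjusted p = 0.222), or 0.52 (adjusted p = 3.82e-05) without the 3 libraries. In untreated cells it gave -0.46 ± 0.39 (adjusted p = 0.371), 0.42 without the 3 libraries and -1.25 (adjusted p = 5.67e-05) without KO untreated replicate 3. The sign of that difference therefore depended on which KO untreated libraries were kept.

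AKR1B10 reduces aldehydes, among them retinal and products of lipid peroxidation, and is known for its high level in liver tumours. It was at 85.1, 61.5 and 80.8 CPM in KO copper, against 31.2, 25.6 and 43.0 CPM in KO untreated replicates 1, 2 and 3. It was at 14.9, 20.9 and 36.4 CPM in WT copper, against 11.3, 17.2 and 12.4 CPM in WT untreated replicates 1, 2 and 3. Every KO library was above every WT library of the same treatment, and the order of the group means was KO copper, KO untreated, WT copper, WT untreated. The ranges of KO untreated and WT copper cells overlapped, as did those of the WT groups.

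AKR1B10 was the one member higher in KO than in WT cells in both treatments, by 1.61 ± 0.31 with copper (adjusted p = 0.00594) and by 1.17 ± 0.32 without (adjusted p = 0.0175). The call with copper held in every alternative run. The call without copper was lost when WT untreated replicate 1 (1.03, adjusted p = 0.0791) or replicate 3 (1.12, adjusted p = 0.0599) was left out. The difference was 1.45 without the 3 libraries that stood apart. Copper raised AKR1B10 in KO cells by 1.29 ± 0.31 (adjusted p = 0.0083), or 0.999 without the 3 libraries, and this call was never lost. In WT cells copper gave 0.85 ± 0.32 (adjusted p = 0.097). That value was called without the 3 libraries (1.14, adjusted p = 0.000385) and without KO untreated replicate 3 (0.91, adjusted p = 0.0228). The difference of the copper effects was 0.44 ± 0.45 (adjusted p = 0.497), and -0.14 without the 3 libraries.

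AKR1C1, AKR1C2 and AKR1C3 lie in a cluster on chromosome 10 and reduce ketosteroids, prostaglandins and reactive aldehydes. Their sequences are so alike that their tags may be shared. Of the 426 windows of 75 bases (the read length) in the last 500 bases of each GENCODE 29 transcript, 69 to 351 in the AKR1C2 transcripts also occur in another gene, most often AKR1C1. The counts were 0 to 150 for the AKR1C1 transcripts and 38 to 99 for those of AKR1C3, against 15 for AKR1B10 (shared with AKR1B15), 0 to 14 for PGD (shared with the pseudogene PGDP1) and 0 for TKT, TALDO1, NQO1 and ME1. The split between AKR1C1 and AKR1C2 is therefore uncertain, and their sum is given as well.

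A stretch of promoter before a start of each of the 3 genes is shown because the genes are close paralogs whose counts may be split between them. Those of AKR1C2 and AKR1C3 lie within the RefSeq spans of these genes (chr10:4987775-5018000 and chr10:5048781-5107686), so they precede internal starts. The 120 bases from AKR1C1 (chr10:4963294-4963413, plus strand) and AKR1C2 (chr10:5003863-5003982, minus strand) are identical, within a shared run of 245 bases in the RefSeq GRCh38.p14 entries. The stretch from AKR1C3 (chr10:5094284-5094412, plus strand) has 91 of the 120 AKR1C1 bases at aligned positions (the other of its 2 entries has 88), and its capitals are the bases that differ from AKR1C1 or are inserted. The core TGACNNNGC was not among the letters of these genes' windows.
AKR1C1: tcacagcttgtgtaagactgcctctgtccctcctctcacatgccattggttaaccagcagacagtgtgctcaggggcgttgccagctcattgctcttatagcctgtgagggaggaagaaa
AKR1C2: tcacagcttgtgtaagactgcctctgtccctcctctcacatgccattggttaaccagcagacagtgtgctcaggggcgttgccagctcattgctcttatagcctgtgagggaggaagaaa
AKR1C3: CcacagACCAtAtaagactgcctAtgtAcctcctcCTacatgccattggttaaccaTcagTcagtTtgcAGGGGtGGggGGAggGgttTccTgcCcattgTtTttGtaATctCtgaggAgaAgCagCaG

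AKR1C1 was at 506, 449.6 and 477 CPM in KO copper, against 44.3, 39.9 and 245 CPM in KO untreated replicates 1, 2 and 3. It was at 201, 664 and 851 CPM in WT copper, against 373, 361 and 349 CPM in WT untreated replicates 1, 2 and 3. The WT copper libraries lay on either side of the untreated ones, with replicate 1 below and replicates 2 and 3 above them. The copper rise in KO cells was 2.25 ± 0.62 (adjusted p = 0.0152), and it was 1.14 without the 3 libraries that stood apart and 3.52 (adjusted p = 2.59e-05) without KO untreated replicate 3. It missed the threshold without KO untreated replicate 1 (1.89, adjusted p = 0.053) and when only the KO libraries entered the fit (2.25, adjusted p = 0.055). In WT cells copper gave 0.68 ± 0.59 (adjusted p = 0.465), and 1.13 (adjusted p = 3.62e-12) without the 3 libraries.

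In untreated cells AKR1C1 was lower in KO than in WT by a log2 difference of -1.86 ± 0.61 (adjusted p = 0.0361). That call was lost in 9 of the 12 fits with 1 library left out, with adjusted p of 0.0507 to 0.113, and with only the untreated libraries in the fit (adjusted p = 0.0912). It was kept without KO untreated replicate 3 (-3.14, adjusted p = 6.25e-05), and the difference was -0.76 without the 3 libraries. With copper the difference was -0.28 ± 0.59 (adjusted p = 0.787), and -0.75 (adjusted p = 6.35e-08) without the 3 libraries.

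AKR1C3, which also makes testosterone from androstenedione, was at 166, 139 and 155 CPM in KO copper, against 18.01, 12.3 and 128 CPM in KO untreated replicates 1, 2 and 3. It was at 102, 252 and 347 CPM in WT copper, against 268, 296 and 234 CPM in WT untreated replicates 1, 2 and 3. KO untreated replicates 1 and 2 held 26 and 12 counts of it. All KO copper libraries were above all KO untreated ones, and all KO untreated libraries were below all WT untreated ones.

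Copper gave 1.63 ± 0.65 for AKR1C3 in KO cells (adjusted p = 0.0688), or 0.44 without the 3 libraries and 3.33 (adjusted p = 3.01e-05) without KO untreated replicate 3. In WT cells it gave -0.17 ± 0.62 (adjusted p = 0.889). KO cells had less AKR1C3 than WT cells without copper (-2.43 ± 0.66, adjusted p = 0.0163). That call was lost without KO untreated replicate 1 (-2.04, adjusted p = 0.0523) and with only the untreated libraries in the fit (-2.43, adjusted p = 0.0728). The difference was -1.26 without the 3 libraries and -4.14 (adjusted p = 4.58e-06) without KO untreated replicate 3. With copper the difference was -0.63 ± 0.62 (adjusted p = 0.537), and -1.05 (adjusted p = 4.09e-07) without the 3 libraries.

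AKR1C2 was at 84.1, 63.2 and 73.3 CPM in KO copper, against 26.3, 8.19 and 78.7 CPM in KO untreated replicates 1, 2 and 3. It was at 48.0, 118 and 134 CPM in WT copper, against 94.9, 94.0 and 93.8 CPM in WT untreated replicates 1, 2 and 3. KO untreated replicate 3 lay among the KO copper libraries, and all KO untreated libraries were below the WT untreated ones. No comparison passed: copper gave 1.04 ± 0.53 in KO (adjusted p = 0.146) and 0.11 ± 0.51 in WT cells (adjusted p = 0.918). KO differed from WT by -0.47 ± 0.51 with copper (adjusted p = 0.581) and by -1.40 ± 0.53 without (adjusted p = 0.0604). Without the 3 libraries these were -0.85 and -0.46, while the copper effect was 0.08 in KO and 0.48 in WT cells. Without KO untreated replicate 3 the copper effect in KO cells was 2.02 (adjusted p = 0.00131) and the difference between untreated lines -2.40 (adjusted p = 0.000332).

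Summed over the 3 genes, AKR1C counts came to 757, 652 and 706 CPM in KO copper, against 88.7, 60.4 and 452 CPM in KO untreated replicates 1, 2 and 3. The sums were 351, 1034 and 1332 CPM in WT copper, against 736, 752 and 676 CPM in WT untreated replicates 1, 2 and 3. The sum rose with copper in KO cells by 1.96 ± 0.62 (adjusted p = 0.0288) and was lower in untreated KO than in untreated WT cells by a log2 difference of -2.00 ± 0.62 (adjusted p = 0.0284). Copper in WT cells (0.35 ± 0.60, adjusted p = 0.736) and KO against WT with copper (-0.39 ± 0.60, adjusted p = 0.71) did not pass. The sum was fitted on all libraries only. Its lowest values were those of the 3 libraries that stood apart, KO untreated replicates 1 and 2 and WT copper replicate 1. How far these fold changes and calls rest on those libraries was not tested. Without those libraries each of the 3 genes, taken alone, had a smaller copper effect in KO cells and a smaller difference between untreated lines. The copper effect on each gene in WT cells was then higher.

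The make-up of the sum also differed between groups. AKR1C1 took 66.9% to 68.9% of the counts in KO copper, 50.0% to 66.1% in KO untreated, 57.3% to 64.3% in WT copper and 48.1% to 51.6% in WT untreated libraries. AKR1C3 took 21.4% to 22%, 20.3% to 28.3%, 24.4% to 29.03% and 34.6% to 39.4% in the same groups. The share of AKR1C1 was thus higher in every copper library of either line than in every WT untreated library, and the share of AKR1C3 was lower in all other libraries than in the WT untreated ones. Shares were not tested. AKR1C2 took 9.69% to 29.7% over all libraries, and its highest share, in KO untreated replicate 1, rested on 38 counts.

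**Figure D3:**
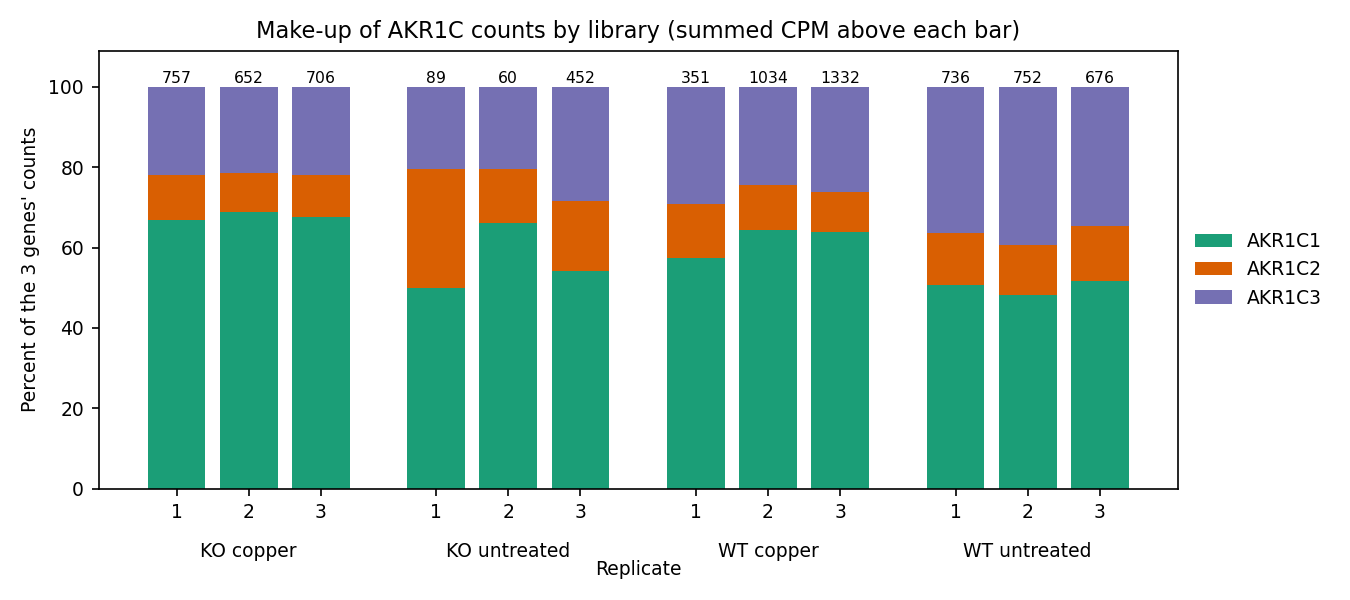
Share of AKR1C1, AKR1C2 and AKR1C3 in their summed counts (stacked bars, percent) for each library of KO copper, KO untreated, WT copper and WT untreated cells, with the summed CPM above each bar. AKR1C3 takes 34.6% to 39.4% in WT untreated libraries and 21.4% to 22% in KO copper libraries.

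The libraries that stood apart differed from the rest of their groups in 7 of the 8 members in the same direction in KO untreated cells. The mean log2(CPM + 1) of replicates 1 and 2 minus that of replicate 3 was -3.02 for AKR1C3, -2.95 for TALDO1, -2.51 for AKR1C1, -2.33 for AKR1C2, -1.82 for NQO1, -1.18 for PGD and -0.59 for AKR1B10. It was 0.59 for TKT, and the median over all genes tested was -0.23. Of all genes tested, 47.4% were lower in both of these libraries than in replicate 3, so a lower value there was common. In WT copper, replicate 1 minus the mean of replicates 2 and 3 was -1.90 for AKR1C1, -1.53 for AKR1C3, -1.37 for AKR1C2, -1.07 for TALDO1, -0.84 for AKR1B10 and -0.58 for NQO1. It was 0.52 for PGD and 0.37 for TKT, against a median of -0.04 over all genes.

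The count of members called moved accordingly. With the 3 libraries left out, 4 members were called for copper in KO, 6 for copper in WT, 8 for KO against WT with copper, 6 for KO against WT without copper and 0 for the difference of the copper effects. The shares of all genes called in that fit were 39.6%, 40.02%, 37.9%, 34.6% and 8.78% in the same order, so the calls over all genes increased as well. Without KO untreated replicate 3 the member counts were 8, 4, 5, 7 and 6 in that order, and the shares of all genes were 58.1%, 33.1%, 31.2%, 59.0% and 51.5%. In both fits the copper effect on TALDO1, AKR1B10 and AKR1C1 in KO cells and the higher AKR1B10 of KO cells kept their sign. Their calls were kept without KO untreated replicate 3, and any losses of calls in other fits are given above by gene.

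**Figure D4:**
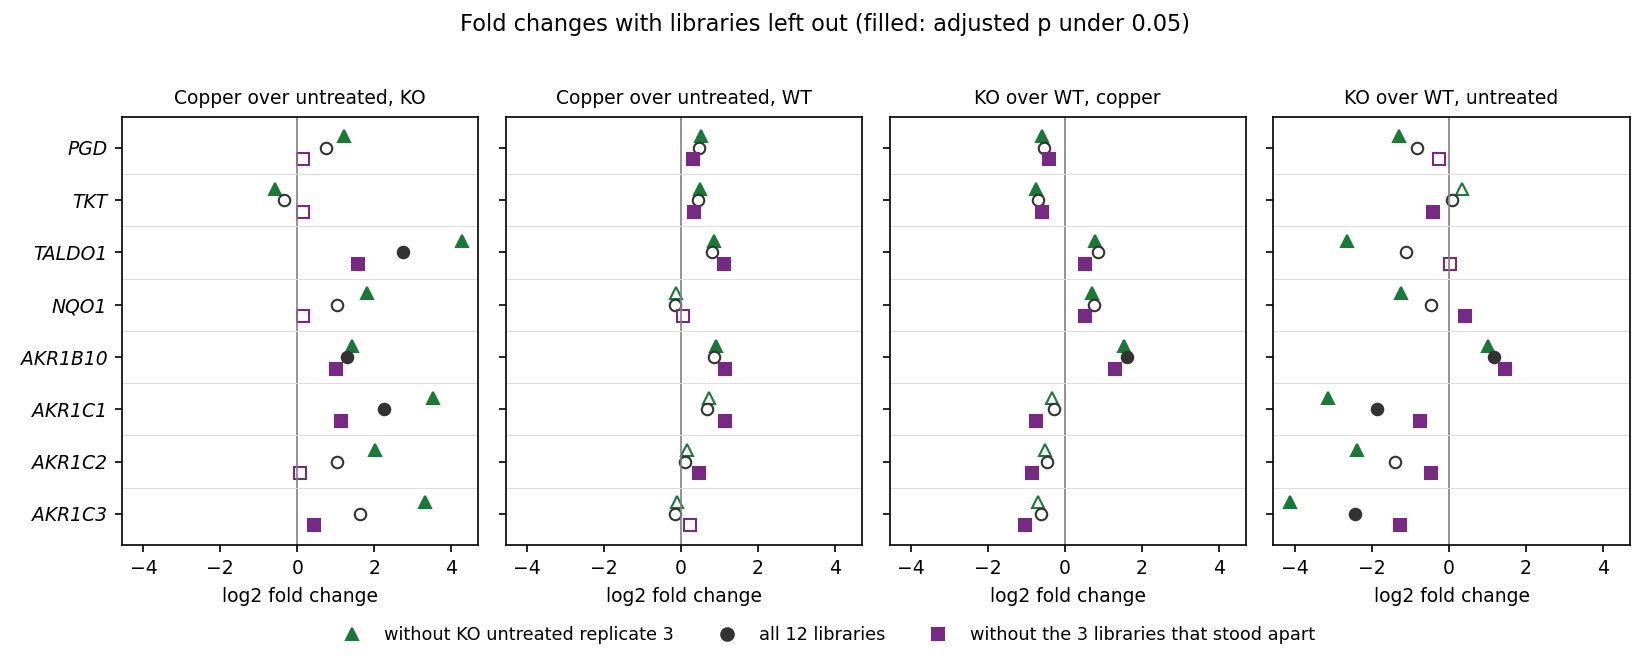
Log2 fold change of the 8 tested members in 4 comparisons, with all 12 libraries (circles), without KO untreated replicate 3 (triangles) and without the 3 libraries that stood apart (squares); filled symbols have an adjusted p under 0.05. For copper in KO cells TALDO1 reads 4.28, 2.76 and 1.59 in the order triangle, circle, square, while AKR1B10 stays between 0.999 and 1.43.

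Other genes of the pathways were counted in 5 lists. Of 24 other NRF2 targets tested, 15 rose and 2 fell with copper in KO cells, and 10 rose and none fell in WT cells. Of all genes, 15.2% rose and 18.5% fell in KO cells, and 8.23% rose and 6.68% fell in WT cells. The list had medians of 1.39 in KO and 0.84 in WT cells, against 0.01 and -0.03 over all genes. SLC7A11, the cystine transporter, rose by 3.35 ± 0.24 in KO (adjusted p = 4.28e-06) and by 3.37 ± 0.24 in WT cells (adjusted p = 6.6e-06). GCLM, the modifier subunit of the enzyme that starts glutathione synthesis, rose by 2.29 ± 0.29 and 3.51 ± 0.31. The 2 that fell in KO cells were EPHX1 (-1.50 ± 0.25), an epoxide hydrolase, and GPX2 (-1.44 ± 0.35), a glutathione peroxidase that rose in WT cells (1.33 ± 0.34). The fall of GPX2 was -0.53 and that of EPHX1 -0.94 without the 3 libraries, where GCLM rose by 2.95 in KO cells, and the call of GPX2 in WT cells was lost without WT copper replicate 1 or any 1 of the WT untreated libraries. Of the 24, 9 were called in KO and 16 in WT cells when only the groups compared entered the fit, against 17.9% and 29.2% of all genes. Without the 3 libraries that stood apart the counts in both lines were higher, as was the share of all genes called. The count in WT cells was 6 without WT untreated replicate 2 and 16 without KO untreated replicate 3. Of all genes, 6.40% and 33.1% were called in those 2 fits.

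Of the other 20 pentose phosphate and NADPH producing genes, 2 rose and 5 fell with copper in KO cells, close to the share of all genes called, and 1 rose and 4 fell in WT cells, with medians of -0.48 in both lines. Without any 1 of the KO copper libraries 4 were called in KO cells, against 20.7% to 22.7% of all genes. In WT cells 2 were called without any 1 of the WT untreated libraries or WT copper replicate 1, 3 without WT copper replicate 2 and 8 without KO untreated replicate 3. The shares of all genes were 6.40% to 9.12%, 7.34% and 33.1% in the same order. Leaving out the 3 libraries that stood apart raised the count in each line, as it did the share of all genes called. H6PD, which runs the oxidative branch inside the endoplasmic reticulum, fell in KO cells by 2.71 on the log2 scale (SE 0.34, adjusted p = 0.000184), to 5.86 to 9.95 CPM with copper against 34.5 to 74.1 CPM without, and its log2 fold change was -2.04 without the 3 libraries. GLUD1 (glutamate dehydrogenase) and NNT (the mitochondrial transhydrogenase) fell in both lines, GLUD1 by 1.31 in KO and 1.47 in WT cells and NNT by 1.03 in KO and 1.31 in WT cells.

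Among other aldo-keto and carbonyl reductases, 3 of 12 rose and 4 fell with copper in KO cells, and 3 rose and 1 fell in WT cells, with medians of -0.35 in KO and -0.20 in WT cells. AKR1B1, aldose reductase and a paralog of AKR1B10, rose by 2.16 ± 0.26 in KO (adjusted p = 0.000147) and by 1.31 ± 0.25 in WT cells (adjusted p = 0.00525), and in KO cells by 1.56 without the 3 libraries. PTGR1, a prostaglandin and alkenal reductase, rose by 2.59 ± 0.28 and 1.61 ± 0.28, and was higher in KO than in WT cells with copper (1.46 ± 0.26, adjusted p = 0.00378). NQO2, the paralog of NQO1, rose by 1.07 ± 0.21 in KO and 1.29 ± 0.21 in WT cells, although NQO1 passed in neither. AKR1D1, the steroid 5-beta-reductase, fell in both lines, by 1.63 in KO and 2.29 in WT cells, and its log2 fold change in KO cells was -2.24 without the 3 libraries. It had 11 counts in all in the WT copper libraries, at 1.07 to 1.94 CPM, which is near the floor. AKR1A1, aldehyde reductase, fell in KO cells by 1.13 (adjusted p = 0.00961), a call lost without the 3 libraries (-0.32, adjusted p = 0.0982), and CBR1, a carbonyl reductase, passed in no comparison. AKR1C4, a liver-enriched paralog of the AKR1C members, was at most 1.31 CPM in any library and was not tested.

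Of 7 enzymes that use NADPH against oxidants or in haem breakdown, 3 rose and 1 fell with copper in KO cells and 2 rose in WT cells, with medians of 0.29 in KO and 0.68 in WT cells. TXNRD1 (thioredoxin reductase) rose by 2.21 ± 0.19 in KO and 2.52 ± 0.19 in WT cells, and HMOX1 (haem oxygenase) by 2.71 ± 0.33 and 4.20 ± 0.35. The HMOX1 rise in KO cells was 3.56 without the 3 libraries. BLVRB, a biliverdin and flavin reductase, rose by 2.07 ± 0.35 in KO cells. The count in WT cells was 4 without KO untreated replicate 3, where 33.1% of all genes were called. With the 3 libraries that stood apart left out, more of these enzymes and of the 12 reductases were called in WT cells, as were more of all genes.

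NRF2 and its regulators and partners included the small MAF genes. In KO cells 4 of 10 rose and 1 fell with copper, and in WT cells 2 rose and none fell, with medians of 0.60 in KO and 0.21 in WT cells. MAFF was at 88.7, 88.3 and 94.4 CPM in KO copper, against 1.39, 5.12 and 3.97 CPM in KO untreated replicates 1, 2 and 3. It was at 71.5, 77.6 and 84.8 CPM in WT copper, against 16.9, 23.5 and 21.9 CPM in WT untreated replicates 1, 2 and 3. The value in KO untreated replicate 1 was under the floor of 3 counts there, 2.08 CPM. The MAFF rise was larger in KO than in WT cells by 2.89 ± 0.39 (adjusted p = 0.00659), and untreated KO cells had less MAFF than untreated WT cells (-2.71 ± 0.31, adjusted p = 0.000224). NFE2L2 itself fell with copper in KO cells by 0.78 on the log2 scale (SE 0.21, adjusted p = 0.0136) and gave 0.02 ± 0.21 in WT cells (adjusted p = 0.971). The call in KO cells was lost without KO untreated replicate 1 or KO copper replicate 1 or 3. In WT cells more of the 10 were called without the 3 libraries that stood apart, as were more of all genes. BACH1, a repressor at antioxidant response elements, rose in KO cells by 1.41 ± 0.32 (adjusted p = 0.00612). KEAP1 passed in no comparison.

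Between the lines without copper, KO was higher for 8 of 24 other NRF2 targets and lower for 3, and no regulator or partner was higher while 5 of 10 were lower. The medians were 0.21 and -0.69, against -0.02 over all genes, of which 17.9% were higher and 14.0% lower. EPHX1 was at 35.7 to 62.4 CPM in KO untreated, against 9.55 to 10.02 CPM in WT untreated libraries (2.23 ± 0.26, adjusted p = 0.000225, and 1.65 without the 3 libraries). NFE2L1, a relative of NRF2, was lower in KO cells without copper (-1.42 ± 0.17, adjusted p = 0.000282) and with it (-1.18 ± 0.17, adjusted p = 0.00111). Of the pentose phosphate and NADPH producing genes 3 of 20 were higher and 3 lower in untreated KO cells, and TIGAR, a fructose bisphosphatase that favours the pentose phosphate pathway, was higher by 1.87 ± 0.47 (adjusted p = 0.012), a call lost without WT untreated replicate 1 (adjusted p = 0.0537). TIGAR had 23 counts in all in the WT untreated libraries. The 6 of 20 called are close to the 31.9% of all genes called. Of the reductases 3 of 12 were higher, against 17.9% of all genes, and none was lower. Of the users of NADPH 2 of 7 were higher and 1 lower. HMOX1 was at 617 to 1370 CPM in KO untreated, against 259 to 296 CPM in WT untreated libraries (1.84 ± 0.32, adjusted p = 0.00193). That difference was 0.98 without the 3 libraries.

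These counts without copper moved with single libraries, and so did the share of all genes called. Of all genes, 20.1% were called without KO untreated replicate 1 and 21.6% without replicate 2. That share was 17.9% to 19.5% without any 1 of the WT untreated libraries and 59.0% without KO untreated replicate 3. The 11 targets called became 5 without KO untreated replicate 1, 6 or 7 without KO untreated replicate 2 or any 1 of the WT untreated libraries, and 15 without KO untreated replicate 3. The 6 pentose phosphate and NADPH producing genes became 3 without any 1 of the WT untreated libraries and 12 without KO untreated replicate 3. The 3 reductases and the 3 users of NADPH each became 1 without WT untreated replicate 1 or 2, and 6 and 5 without KO untreated replicate 3. The 5 regulators and partners became 3 without WT untreated replicate 2 or KO untreated replicate 1 or 2.

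With copper, 1 of 24 other NRF2 targets was higher in KO than in WT cells, as were 1 of 20 pentose phosphate and NADPH producing genes, 2 of 12 reductases and 1 of 10 regulators and partners, while 2, 1 and 2 of the last 3 lists were lower. Of all genes 5.77% were higher and 8.03% lower. None of the 7 users of NADPH passed in edgeR, where 1 had an unadjusted p under 0.05. H6PD was lower in KO cells by a log2 difference of -2.53 ± 0.34 (adjusted p = 0.000651). With the 3 libraries that stood apart left out, more genes of each list were called, as were more of all genes. Leaving out any 1 WT or KO copper library or WT untreated library left no target called, and 7 were called without KO untreated replicate 3. Of all genes, 5.90% to 10.8% were called in the former fits and 31.2% in the latter. The 3 pentose phosphate and NADPH producing genes became 1 without WT copper replicate 2 or any 1 of the KO copper libraries and 5 without KO untreated replicate 3, and the 3 reductases became 1 without WT copper replicate 1 or 2 or KO copper replicate 1 or 3.

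**Figure D5:**
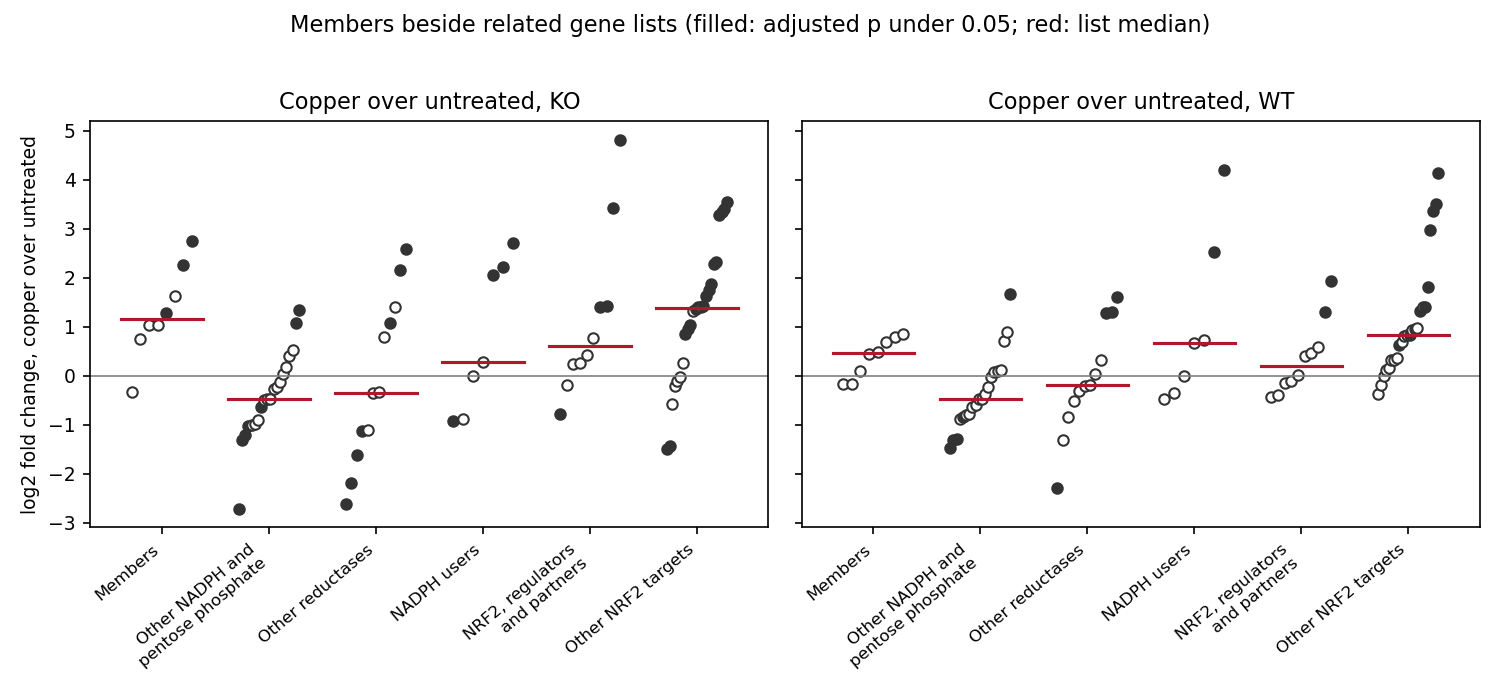
Log2 fold change of copper over untreated in KO and in WT cells for the 8 tested members and for each tested gene of 5 related lists; filled points have an adjusted p under 0.05 and red bars are list medians. Other NRF2 targets have medians of 1.39 in KO and 0.84 in WT cells, and the members 1.17 and 0.46.

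The genes whose profiles were most like each member over the 12 libraries were found by the root mean square difference of centred log2(CPM + 1) values among 7914 other genes with at least 10 CPM on average. NQO1 was nearest to KEAP1 (0.15), PTDSS1 (0.15) and LAMP1 (0.16), and TALDO1 to PSMB7 (0.27), HMGA1 (0.29) and ZNF419 (0.30). AKR1B10 was nearest to HKDC1 (0.33), SP140L (0.33) and TRMT6 (0.33), and AKR1C1 to MMADHC (0.29), CTH (0.31) and CCNC (0.32). The nearest genes were KIAA1191, CARD19 and BRK1 for AKR1C2 (0.22 to 0.30), HDAC3, ITGB5 and RPS16 for AKR1C3 (0.30 to 0.33), LMNA, SRC and TCEA1 for PGD (0.22 to 0.24) and NAA38, CCDC22 and CSNK2A1 for TKT (0.10 to 0.13). These distances share the depth and the make-up of the 12 libraries. Among the members, AKR1C1 and AKR1C3 were the closest pair (0.47) and AKR1B10 and AKR1C3 the farthest (1.79), and TALDO1 was closer to AKR1C1 (0.55) than to TKT (1.63).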

How the data were processed

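The authors deposited 1 file of raw read counts per library, and these counts carry no normalization. QuantSeq 3′ libraries were made from 100 ng of total RNA and read single-end for 75 bp from 300 bp fragments, per the labels' protocols. STAR 2.3.0, HTSeq and the hg19 build are named in the submitters' processing notes. Neither the annotation release nor the strand setting is given in these sources, so antisense reads cannot be told apart. Amplified copies cannot be told from separate molecules, so floors cover counting error only.

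Versioned Ensembl IDs were named from gene name tables and GENCODE 29, which gave 33934 of 47634 IDs a symbol (98.9% of counts); 23424 IDs had no counts. CPM is the count per 1000000 counts of the library. The test was that of edgeR 4.0.16 (R 4.3.3) after filterByExpr (11051 genes), TMM scaling, a robust quasi-likelihood fit of 4 group means on all 12 libraries (biological coefficient of variation 29.1%) and Benjamini-Hochberg adjustment over all genes, called at 0.05. "Rose" and "fell" mean past that threshold. The SE was obtained by dividing a log2 fold change by the root of its F statistic. The AKR1C sum was fitted as 1 feature.

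The members and the lists were chosen with earlier results of these data known, as were the 3 libraries left out together. Named genes are the 9 members, up to 4 genes of each other list with the smallest adjusted p in a comparison, NFE2L2, KEAP1, BACH1, HMOX1, GCLM, TXNRD1, SLC7A11, AKR1B1, AKR1C4, AKR1A1, CBR1 and ATP7B, and 3 nearest genes per member. Genes behind a count of 5 or fewer were named after their values were seen. Some genes of the lists are not reported here. Alternatives were no filter, RLE size factors, DESeq2 1.42.0, limma voom 3.58.1, only the groups compared, a replicate block, each library left out, the 3 libraries left out and AKR1C counts summed. The fit was tested on simulated counts with 200 changed genes. It recovered 12% to 21% of 2-fold and 81% to 86% of 4-fold changes between groups, and 2% and 40% for the difference of copper effects. Promoter sequences are RefSeq's (GRCh38.p14), a build other than the counts', and were matched by symbol for 8 of the 9 members, AKR1B10 excepted. Sequences were compared with Biopython 1.88.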

Additional observations from a re-analysis of the deposited data

Results flagged for a closer look

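No member's copper effect differed between KO and WT cells at an adjusted p of 0.05 in edgeR. Of the related genes, 6 did, and each is given as the copper effect in KO cells minus that in WT cells on the log2 scale. MAFG, a small MAF partner of NRF2, had 2.9534 (adjusted p = 0.0249) and MAFF had 2.8911 (adjusted p = 0.00659). ABHD4, a lysophospholipase and NRF2 target, had 2.615 (adjusted p = 0.038). GPX2 had -2.7748 (adjusted p = 0.0228), ALDH1L2, a mitochondrial folate enzyme that makes NADPH, had -2.6773 (adjusted p = 0.0454), and H6PD had -2.2425 (adjusted p = 0.0315). MAFF kept its call with any single library left out, at an adjusted p of at most 0.0352. The other 5 lost it in 7 to 10 of the 12 such fits.

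Without the 3 libraries that stood apart, MAFG had 1.91, MAFF 2.64, ABHD4 1.56, GPX2 -1.54, H6PD -1.43 and ALDH1L2, whose call was lost, -1.32.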

How the results depend on the processing

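Of the alternatives tried on the log2 fold changes of the 8 members over 5 comparisons, 679 values kept their direction and side of the threshold, 66 passed it newly, 16 lost it and 16 changed sign. Members called, against 3 in the main analysis for copper in KO cells, were 6 with no filter and 5 each with DESeq2, limma voom and the replicate block, and 2 to 8 with 1 library left out. For untreated KO against WT (3 called) they were 6 with no filter, 5 with DESeq2 and with limma voom, 1 with only the groups compared, 6 without the 3 libraries that stood apart and 1 to 7 with 1 left out. For KO against WT with copper (1 called) they were 2 with DESeq2, 4 with only the groups compared, 8 without the 3 libraries and 1 to 5 with 1 left out. For copper in WT cells (0 called) they were 1 with only the groups compared, 6 without the 3 libraries and 0 to 4 with 1 left out, and for the difference of copper effects (0 called) 4 with no filter and 0 to 6 with 1 left out. Over all genes, no filter called 18.1% for copper in KO, 17.6% for untreated KO against WT and 9.77% for the difference, DESeq2 38.2%, 37.2% and 18.2%, limma voom 33.7%, 32.8% and 1.47%, and the replicate block 33.6%, 31.9% and 1.02%. With only the groups compared, 17.9% were called for copper in KO, 29.2% for copper in WT, and 13.2% without and 26.5% with copper for KO against WT. DESeq2 called 18.4% for KO against WT with copper. With 1 library left out, 20.7% to 58.1% were called for copper in KO and 6.40% to 33.1% for copper in WT. For KO against WT the shares were 17.9% to 59.0% without and 5.90% to 31.2% with copper, and for the difference 0.113% to 51.5%.

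Signs turned without the 3 libraries for NQO1 (0.0415) and AKR1C3 (0.2353) under copper in WT cells, TKT (0.1577) under copper in KO cells, TKT (-0.4179), TALDO1 (0.0431) and NQO1 (0.4248) in untreated KO against WT, and PGD (-0.1598), AKR1B10 (-0.1431) and AKR1C2 (-0.3935) in the difference of copper effects. Under copper in WT cells they turned for AKR1C2 with limma voom (-0.0076) and without WT copper replicates 2 or 3 (-0.0148 and -0.1782; range -0.1782 to 0.4231 with 1 library left out), and for AKR1C3 without WT copper replicate 1 (0.1814; range -0.584 to 0.1814). They turned without KO untreated replicate 1 for TKT in untreated cells (-0.0602; range -0.0602 to 0.3337) and PGD in the difference (-0.001; range -0.001 to 0.686), and without WT copper replicate 3 for AKR1C1 in KO against WT with copper (0.1259; range -0.6899 to 0.1259). The cause was not tested.

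The replicate numbers did not pair the libraries: same-numbered deviations correlated at -0.221 to 0.61, over 0.1 in 2 of 18 pairs, and 4 of 12 libraries correlated best with their own number. With the replicate block, members called were 5 for copper in KO, 0 for copper in WT, 1 and 4 for KO against WT with and without copper and 0 for the difference. Among the tested members, depth limits AKR1C2, AKR1C3 and TALDO1 most, with 8 to 12 counts each in KO untreated replicate 2. ME1 had too few counts to pass the filter.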
